A study of Xenopus tropicalis with 12 samples.

Results

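TR binding in the hind limb of TRα (-/-) and wild-type tadpoles without T3 was compared over 6 ChIP-seq peak lists, 3 technical replicates per genotype. Peaks overlapping by 1 bp or more across the 6 lists were joined, giving 69531 regions, and the 16797 regions with a peak in at least 2 of the 3 libraries of either genotype were kept. Such a region was counted as bound in that genotype. The other 52734 regions had a peak in fewer than 2 libraries of both genotypes, and the 12 libraries of the whole series give 189159 regions by the same merge.

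The TRα (-/-) tadpoles carried no functional TRα and kept the TRβ gene, and the wild-type tadpoles carried both receptor genes. All were X. tropicalis at about stage 54 and received no T3. The labels give both genotypes the same parents, whereas the methods describe purchased wild-type frogs and knockouts from a cross of heterozygotes, so family background cannot be told apart from genotype. Chromatin came from the whole hind limb of several pooled tadpoles per sample, with all of its cell types, and was precipitated with an antibody described only as anti-TR. The lists hold peaks, so the genotype itself could not be checked in them. Because the libraries of a genotype are technical replicates of 1 pooled sample, every p-value here measures the spread between libraries and not between animals. In whole limb, fewer cells with bound receptor and less receptor bound per cell cannot be told apart.

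TRα and TRβ are nuclear receptors that bind thyroid hormone response elements in DNA, mostly as heterodimers with 9-cis retinoic acid receptors (RXR). The receptor sits on its sites with or without hormone and works as a switch: unliganded, it keeps T3-inducible genes low through bound corepressors, and T3 exchanges these for coactivators. TRα is the receptor expressed before and during limb growth, while TRβ, itself a T3 response gene, becomes abundant as hormone rises.

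The TRα (-/-) libraries were shallower than the wild-type libraries, so depth and genotype cannot be told apart across the 6 libraries. Replicates 1, 2 and 3 had 1597734, 834029 and 3000220 fragments after filtering in TRα (-/-), against 3080104, 4188012 and 6119057 in wild type. The groups did not overlap and the wild-type mean was 2.46 times the TRα (-/-) mean (exact two-sided permutation test, p = 0.1, the smallest that 3 libraries against 3 allow). The lists held 19088, 4645 and 20827 peaks in TRα (-/-), against 29582, 23668 and 23982 in wild type, a difference of means of -10891 (exact permutation p = 0.1). Per 1000 fragments TRα (-/-) averaged 8.15 ± 3.36 peaks and wild type 6.39 ± 2.91 peaks (SD, n = 3 each), and here the genotypes overlapped (exact permutation p = 0.6). The part of depth in the results below was not tested.

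Regions bound in wild type were more numerous than those bound in TRα (-/-), and most regions bound in TRα (-/-) were also bound in wild type. TRα (-/-) hind limb had 7441 bound regions and wild-type hind limb 15819, a ratio of 0.470. Both genotypes shared 6463 regions, 9.30% of all 69531. Bound in TRα (-/-) and not in wild type were 978 regions (1.41% of all regions), or 13.1% of the TRα (-/-) regions (95% Wilson interval 12.4 to 13.9, counting error only). Bound in wild type and not in TRα (-/-) were 9356 regions (13.5% of all regions), or 59.1% of the wild-type regions (58.4 to 59.9). "TRα (-/-)-only" and "wild type-only" below mean these 2 classes of the 2-of-3 rule.

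Many of the regions in these classes had a peak in 1 library of the other genotype. Among the 978 TRα (-/-)-only regions, 600 (61.3%) had a peak in 1 wild-type library and 378 in none. Among the 9356 wild type-only regions, 4653 (49.7%) had a peak in 1 TRα (-/-) library and 4703 in none. The share of wild type-only regions with a peak was 13.1%, 1.69% and 34.9% in TRα (-/-) replicates 1, 2 and 3, lowest in the shallowest and highest in the deepest library. The share of TRα (-/-)-only regions with a peak was 15.8%, 15.8% and 29.7% in wild-type replicates 1, 2 and 3, highest in the deepest library.

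The map of libraries per region was lopsided at its strict corners. A peak in all 3 TRα (-/-) libraries and none of the wild-type libraries was seen in 11 regions (0.0158% of all regions), and in all 3 wild-type libraries and none of the TRα (-/-) libraries in 1538 regions (2.21%). Of 2367 regions with a peak in every TRα (-/-) library, 2194 (92.7%) had a peak in every wild-type library. Of 9488 regions with a peak in every wild-type library, the same 2194 (23.1%) had a peak in every TRα (-/-) library, and 3203 lacked a peak in just 1 TRα (-/-) library.

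**Figure D1:**
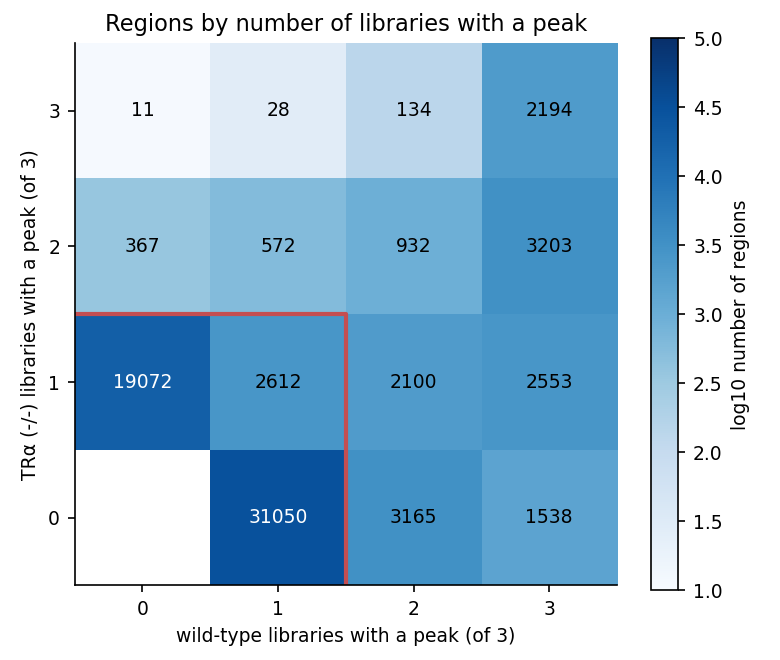
Number of regions by how many TRα (-/-) libraries (vertical axis) and how many wild-type libraries (horizontal axis) had a peak, with the shade giving log10 of the number. The red line separates regions below 2 of 3 libraries in both genotypes from the kept regions; 11 regions sit in the upper left corner and 1538 in the lower right.

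These counts depended on the size of the lists. With each list held to its best 4645 peaks by q value, the ratio of bound regions was 0.776, the share without binding in the other genotype was 25.8% for TRα (-/-) regions and 42.4% for wild-type regions. The strict corners then held 75 regions for TRα (-/-) and 355 for wild type. With a TRα (-/-) library left out, both remaining TRα (-/-) libraries must have the peak. Without replicate 1 or 3, 1 of these is replicate 2, whose list held 4645 peaks. The ratio was 0.186 without TRα (-/-) replicate 1 and 0.158 without TRα (-/-) replicate 3. The share of TRα (-/-) regions missing in wild type was 5.33% and 3.32% without TRα (-/-) replicates 1 and 3. Without wild-type replicates 1, 2 and 3 it was 20.8%, 22.4% and 25.4%.

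Regions bound in both genotypes ranked high in every list, and regions of either genotype-only class ranked lower. Each peak's rank was its percentile by q value within its own list, where 100 is the best peak. A region took its best peak in each library, and regions without a peak in a library were left out there. In TRα (-/-) replicate 2, 44.6% of shared and 20.9% of TRα (-/-)-only regions had a peak. Shared regions had median percentiles of 80.0, 65.9 and 81.5 in TRα (-/-) replicates 1, 2 and 3, against 86.2, 83.6 and 83.3 in wild type. TRα (-/-)-only regions had medians of 53.9, 35.0 and 54.9 in the TRα (-/-) lists, near the middle of the list or below it. Wild type-only regions had medians of 65.0, 58.2 and 55.1 in the wild-type lists, above the middle of all 3. In the wild-type lists, the median of wild type-only minus that of shared regions was -24.9 ± 3.47 percentile points (SD, n = 3 libraries, range -28.1 to -21.2). Percentiles by fold enrichment differed little, with shared regions at 79.7, 66.2 and 80.8 in TRα (-/-) and 85.9, 82.9 and 82.2 in wild type.

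The longest peak per region was also longer in shared regions. Its median length was 535, 430 and 655 bp in the TRα (-/-) replicates, against 659, 690 and 754 bp in wild type. Classes rest on overlap by 1 bp, which longer peaks meet more easily, so length is not independent of class. TRα (-/-)-only regions had peaks of 349, 280 and 404.5 bp in TRα (-/-), and wild type-only regions had peaks of 385, 415 and 449 bp in wild type. Taken over whole lists, the median peak length was 264, 321 and 368 bp in TRα (-/-), against 258, 342 and 399 bp in wild type, and the genotypes overlapped (difference of means -15.3 bp, exact permutation p = 0.8). This difference turned to 41.2 bp among peaks with a summit pileup of at least 5 (exact permutation p = 0.1), to 11.5 bp without TRα (-/-) replicate 1 and to 17.7 bp without wild-type replicate 3. The fragment size in the list header was 177, 180 and 200 bp in TRα (-/-), against 152, 176 and 174 bp in wild type, and the shortest peak of each list was as long as this size.

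**Figure D2:**
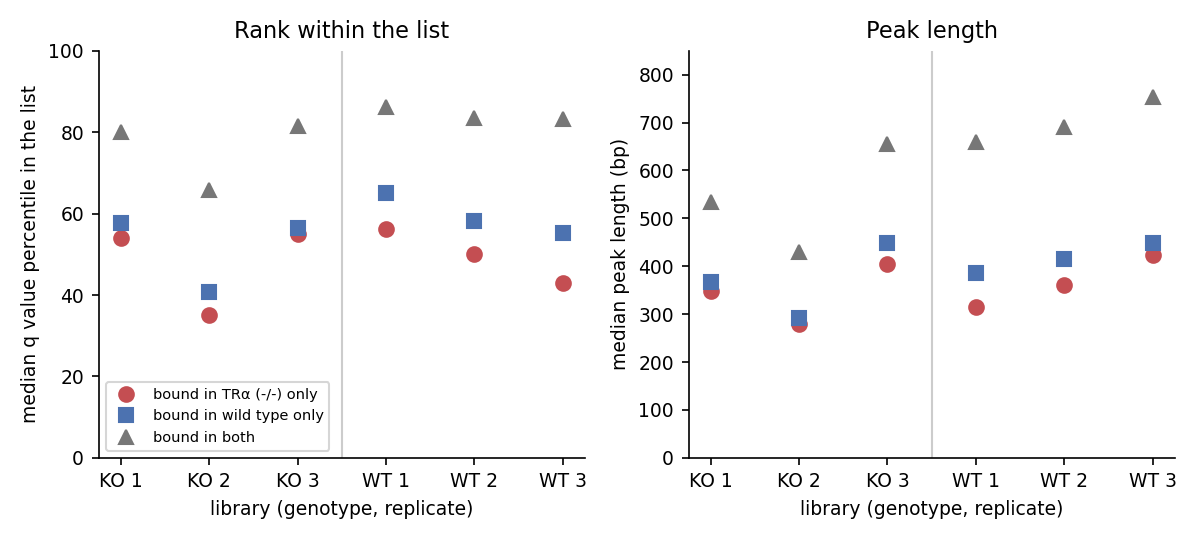
Median q value percentile within the list of the best peak per region (left) and median length in bp of the longest peak per region (right). Values are given by class and library, with the 3 TRα (-/-) libraries (KO) left of the 3 wild-type libraries (WT). Shared regions (triangles) lie above both genotype-only classes in all 6 libraries; in TRα (-/-) replicate 2, the shallowest, all classes are lowest in percentile.

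High-ranked regions were less often missing from the other genotype, in both directions. With TRα (-/-) regions split into deciles by mean percentile in their own libraries, 36.0% of the weakest decile and 0.537% of the strongest decile (4 of 745) were not bound in wild type. For wild-type regions, 89.4% of the weakest decile and 8.72% of the strongest decile (138 of 1582) were not bound in TRα (-/-). The wild-type curve lay above the TRα (-/-) curve in every decile, with 12.5% against 70.2% in the fifth.

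The pair of libraries closest in depth was compared peak by peak, which is not the scale of the 2-of-3 classes above. When a peak in 1 of the 3 libraries sufficed, at unmatched depth, regions missing from the other genotype made up 57.6% (TRα (-/-)) and 71.4% (wild type). Whether matched depth changed the imbalance was not tested. TRα (-/-) replicate 3 had 97.4% as many fragments as wild-type replicate 1, although its fragments were 1.32 times as long. Of the 20827 peaks of TRα (-/-) replicate 3, 9126 (43.8%) met a peak of wild-type replicate 1, and of the 29582 peaks of wild-type replicate 1, 9299 (31.4%) met a peak of TRα (-/-) replicate 3, a share that was 58.7% with equal list sizes. For scale, 32.1% and 13.9% of the peaks of TRα (-/-) replicate 3 met a peak of TRα (-/-) replicates 1 and 2. Of the peaks of wild-type replicate 1, 37.9% and 41.7% met a peak of wild-type replicates 2 and 3. These lists of the same genotype differ in depth and size, and the part of this in the shares was not tested. The lowest summit pileup, the number of fragments over the summit, was 4 in TRα (-/-) replicate 3 and 3 in wild-type replicate 1.

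With the same lowest pileup set for each list in turn, the shares of the pair were close among peaks of middle height and apart among tall peaks. The list searched stayed whole, with 29582 peaks for TRα (-/-) peaks and 20827 for wild-type peaks. The part of this difference in the shares was not tested. With a summit pileup of at least 7, 65.3% of TRα (-/-) replicate 3 peaks (64.4 to 66.2) and 66.0% of wild-type replicate 1 peaks (65.1 to 66.9) were found in the other list, a difference within the counting intervals. With a pileup of at least 20 the shares were 95.9% (94.9 to 96.7) of TRα (-/-) and 90.7% (89.3 to 92.0) of wild-type peaks. With at least 50 they were 365 of 367 TRα (-/-) peaks (99.5%) and 383 of 404 wild-type peaks (94.8%), so 2 tall TRα (-/-) peaks and 21 tall wild-type peaks had no partner. These pileup limits were chosen after seeing the data. Where both libraries had a peak, summit pileup was on median higher in TRα (-/-), by 0.15 on the log2 scale (95% interval 0.13 to 0.17, n = 8472 regions), while fragments times fragment size was higher by 0.36. The interval measures the spread over regions of 1 library pair, not between libraries or animals. Among peaks with a pileup of at least 5 the median difference was 0.02.

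**Figure D3:**
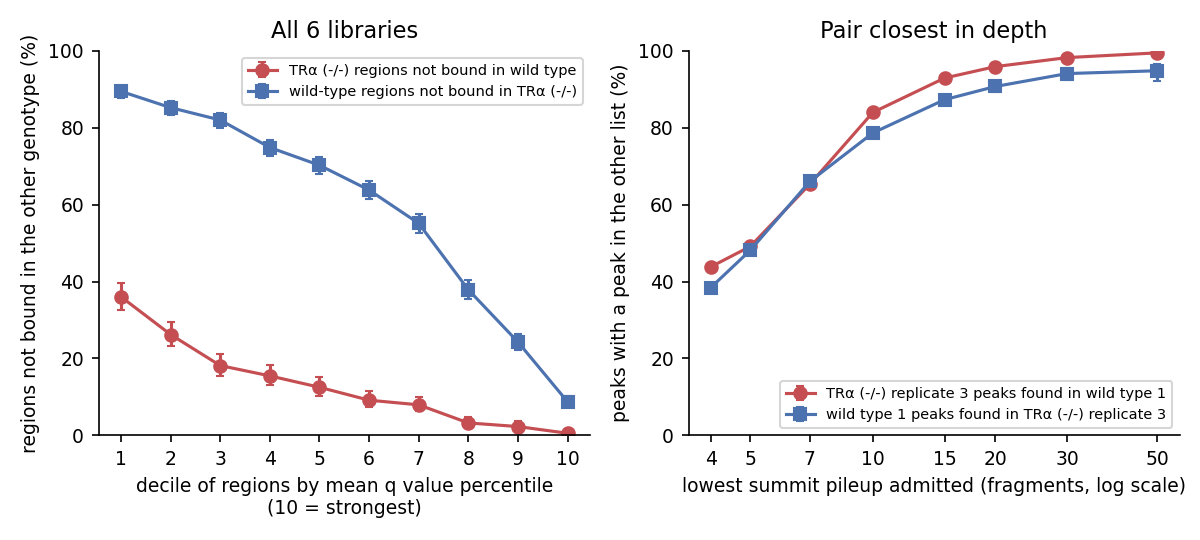
Left, percent of TRα (-/-) regions (red circles) and wild-type regions (blue squares) not bound in the other genotype, by decile of mean q value percentile; right, percent of peaks of TRα (-/-) replicate 3 and of wild-type replicate 1 found in the other list, by the lowest summit pileup admitted (log axis). Bars are 95% Wilson intervals; the left curves end at 0.537% and 8.72%, and the right curves meet at pileups of 5 to 7 and end at 99.5% and 94.8%.

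The ranks of regions were related within and between genotypes. Spearman's rho of fold enrichment over regions with a peak in both libraries was 0.613 to 0.627 between TRα (-/-) libraries, 0.691 to 0.729 between wild-type libraries and 0.541 to 0.627 across genotypes. For the pair closest in depth it was 0.574 over 8625 regions. These are descriptions over regions of 1 library pair each, with no test. Regions of a library share its depth and technical preparation, and depth differs between libraries.

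The class shares were nearly the same on all 10 chromosomes. TRα (-/-)-only regions made up between 11.7% (chromosome 2) and 14.9% (chromosome 7) of the TRα (-/-) regions, and wild type-only regions between 58.6% (chromosome 7) and 60.5% (chromosome 4) of the wild-type regions. The share of each library's peaks on a chromosome overlapped between the genotypes on every chromosome (exact permutation p from 0.2 to 1, 0.667 to 1 after Benjamini-Hochberg adjustment over 10). Kept regions were densest on chromosome 10, with 29.5 per Mb, and sparsest on chromosome 1, with 10.7 per Mb. Within 10 Mb of a chromosome end, measured from the first base and the last peak, lay 60.1% of shared, 50% of TRα (-/-)-only and 52.6% of wild type-only regions, a count added after seeing the data. Median distance to the nearest shared region was 32.4 kb for TRα (-/-)-only, 28.5 kb for wild type-only and 19.98 kb for shared regions themselves.

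The 5 sites named here show the strict wild-type corner at its strongest, chosen by the highest q value percentile in the weakest of their libraries. The 1538 regions of that corner were mostly low, with median summit pileups of 7, 8 and 11 in wild-type replicates 1, 2 and 3. Such strong sites were exceptions. Of 331 regions ranked at least this high in all 3 wild-type libraries, 292 (88.2%) had a peak in all 3 TRα (-/-) libraries. The rank limit was that of the lowest of the 5 named sites, so the number with a peak in none was fixed at 5 (1.51%). The region chr3:131794174-131794350 (177 bp, build v9.1) had pileups of 914, 1127 and 1218 in wild type and no peak in TRα (-/-). Its fold enrichment over local background was 52.3, 45.5 and 45.9, the highest of each of the 3 wild-type lists. With T3 it had a peak only in wild-type replicate 1, with a pileup of 372, and none in the other 5 libraries. At 177 bp it was as short as any of the 1538 regions, whose median length was 623.5 bp. That is close to the fragment size of 152, 176 and 174 bp in wild-type replicates 1, 2 and 3. Peaks were called without a control, and whether this peak is an artifact was not tested.

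The remaining sites differed in whether a peak was called in TRα (-/-) under T3. At chr4:36947618-36948098 wild-type pileups were 86, 119 and 136 without T3, and under T3 TRα (-/-) replicate 1 had 23 and the wild-type replicates 34, 46 and 63. The site chr8:97780567-97780793 had 51, 62 and 95 in wild type, and under T3 no peak in TRα (-/-) and 15, 37 and 28 in wild type. At chr1:98314114-98314507, with 60, 62 and 99 in wild type, TRα (-/-) replicates 2 and 3 had 52 and 83 under T3, against 55 and 62 in the same replicates of wild type. The site chr3:133621830-133622583, with 44, 64 and 69 in wild type, had 8, 10 and 32 in TRα (-/-) under T3, against 3 in wild-type replicate 1 alone. A missing peak means that the site did not pass the q value cutoff of 0.05, not that no fragment was there.

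The strict TRα (-/-) corner held no strong site. Its 11 regions had median summit pileups of 4, 5 and 8 in TRα (-/-) replicates 1, 2 and 3, and none was in the top decile of any list. The tallest, chr9:40334817-40335163, had pileups of 16, 8 and 31 with fold enrichment of 4.48, 4.70 and 4.96. The best ranked, chr4:6311135-6311730, had pileups of 7, 5 and 10, and chr2:12393628-12394027 had 5, 5 and 15. At chr6:96474152-96474638, with 4, 7 and 9, TRα (-/-) had no peak under T3 while the wild-type replicates had 4, 6 and 5. The fifth, chr2:168415899-168416806, had 4, 4 and 6. Under T3, this site and chr9:40334817-40335163 had a peak only in 1 TRα (-/-) library, with pileups of 6 and 12. Under T3, chr4:6311135-6311730 and chr2:12393628-12394027 had peaks in both genotypes.

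The 2194 regions with a peak in all 6 libraries could be compared for rank. Fold enrichment was ranked over these regions within each library, the ranks were turned into normal scores, and genotypes were compared with limma. Ranks fix the average score of a library, so a rank difference is relative to the other regions tested. At a Benjamini-Hochberg adjusted p below 0.05, 85 regions ranked higher in TRα (-/-) (3.87% of those tested) and 88 ranked higher in wild type (4.01%), together 7.89%. At an unadjusted p below 0.05 the numbers were 236 and 250.

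The called regions moved over much of the scale. Regions ranked higher in TRα (-/-) had a median percentile of 85.2 in TRα (-/-) and 47.8 in wild type, and those ranked higher in wild type had 52.2 in TRα (-/-) and 90.9 in wild type. The 3 percentiles of TRα (-/-) lay apart from the 3 of wild type in every called region, against 27.1% of all 2194. The calls were made from these same ranks, so this separation and the size of the shifts follow in part from the call. In the 88 regions higher in wild type, median summit pileups were 13, 6 and 20 in TRα (-/-), against 51.5, 60.5 and 78.5 in wild type. In the 85 regions higher in TRα (-/-), they were 27, 12 and 44 in TRα (-/-), against 17, 20 and 29 in wild type, and on this unscaled measure the genotypes overlapped. Over all 2194 regions, median pileups were 11, 6 and 21 in TRα (-/-), against 18, 24 and 34 in wild type. Median fold enrichment over all 2194 was 7.23, 5.39 and 9.62 in TRα (-/-), against 9.53, 9.97 and 11.3 in wild type. The number of calls depended on single libraries: 16 regions were called without wild-type replicate 1 (6 higher in TRα (-/-) and 10 in wild type), 32 without replicate 2 (12 and 20) and 47 without replicate 3 (19 and 28), while without TRα (-/-) replicate 1 there were 48 higher in TRα (-/-) and 84 in wild type. Ranked by q value, 144 regions were higher in TRα (-/-) and 110 in wild type, and ranked by pileup 154 and 123.

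**Figure D4:**
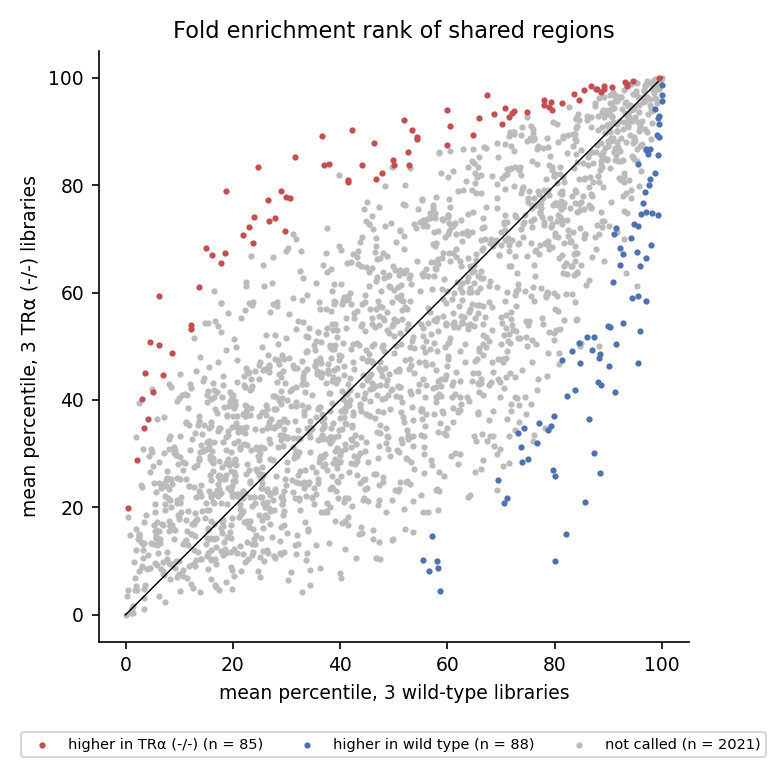
Mean percentile of fold enrichment in the 3 TRα (-/-) libraries (vertical axis) against that in the 3 wild-type libraries (horizontal axis) for the 2194 regions with a peak in all 6 libraries, with the diagonal marking equal rank. The 85 regions called higher in TRα (-/-) (red) lie above the diagonal and the 88 called higher in wild type (blue) below it.

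The named sites ranked higher in wild type had peaks in all 6 libraries and lower pileup in each TRα (-/-) library than in any wild-type library. The region chr5:13342538-13343113 had a fold enrichment of 9.94, 5.92 and 14.6 in TRα (-/-), against 32.3, 27.1 and 33.8 in wild type, with no overlap (limma score difference -1.57, SE 0.22, adjusted p = 0.00265). Its summit pileups were 13, 6 and 27 in TRα (-/-), against 80, 77 and 130 in wild type. In the pair closest in depth these are 27 fragments in TRα (-/-) replicate 3 and 80 in wild-type replicate 1.

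The other named sites higher in wild type followed the same order. Pileups at chr5:2230440-2230968 were 21, 10 and 40 in TRα (-/-), against 123, 111 and 176 in wild type (limma, adjusted p = 0.00265). At chr1:190859800-190860381 they were 16, 8 and 29 in TRα (-/-), against 70, 99 and 140 in wild type (limma, adjusted p = 0.00265). The region chr2:1394901-1395887 had 7, 5 and 10 in TRα (-/-), against 37, 41 and 61 in wild type (limma, adjusted p = 0.00332). The largest score difference of any call was at chr6:129072880-129073610, with pileups of 5, 3 and 8 in TRα (-/-), against 32, 27 and 44 in wild type, and percentiles of 13.5, 6.24 and 10.2 against 86.6, 72.2 and 81.3 (limma score difference -2.17, SE 0.34, adjusted p = 0.00354). Without wild-type replicate 1 its adjusted p was 0.0566.

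At the named sites ranked higher in TRα (-/-), pileups of the genotypes overlapped, although the TRα (-/-) libraries were shallower. The region chr3:6697207-6697588 had a fold enrichment of 20.6, 20.1 and 23.0 in TRα (-/-), against 15.5, 11.3 and 13.7 in wild type, with no overlap (limma score difference 1.44, SE 0.24, adjusted p = 0.00374). Its pileups were 48, 38 and 91 in TRα (-/-), against 46, 40 and 56 in wild type. At chr4:120389088-120390026 the percentiles were 87.6, 89.1 and 90.9 in TRα (-/-), against 43.1, 18.9 and 47.9 in wild type (limma, adjusted p = 0.00475), while fold enrichment overlapped, at 15.01, 10.1 and 19.7 in TRα (-/-), against 8.58, 6.42 and 10.97 in wild type.

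The other named sites of this direction were apart in percentile and less so in fold enrichment. Fold enrichment at chr9:2380378-2380672 was 16.7, 9.17 and 21.9 in TRα (-/-), against 8.15, 7.70 and 12.2 in wild type, where the ranges overlapped although the percentiles did not (limma, adjusted p = 0.00475). At chr6:133130952-133132125 it was 13.3, 10.6 and 15.6 in TRα (-/-), against 8.74, 7.26 and 7.90 in wild type (limma, adjusted p = 0.00636). At chr8:93990576-93991800 it was 15.9, 14.3 and 19.4 in TRα (-/-), against 10.7, 8.46 and 12.9 in wild type (limma, adjusted p = 0.00636). The genotypes did not overlap at these last sites.

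**Figure D5:**
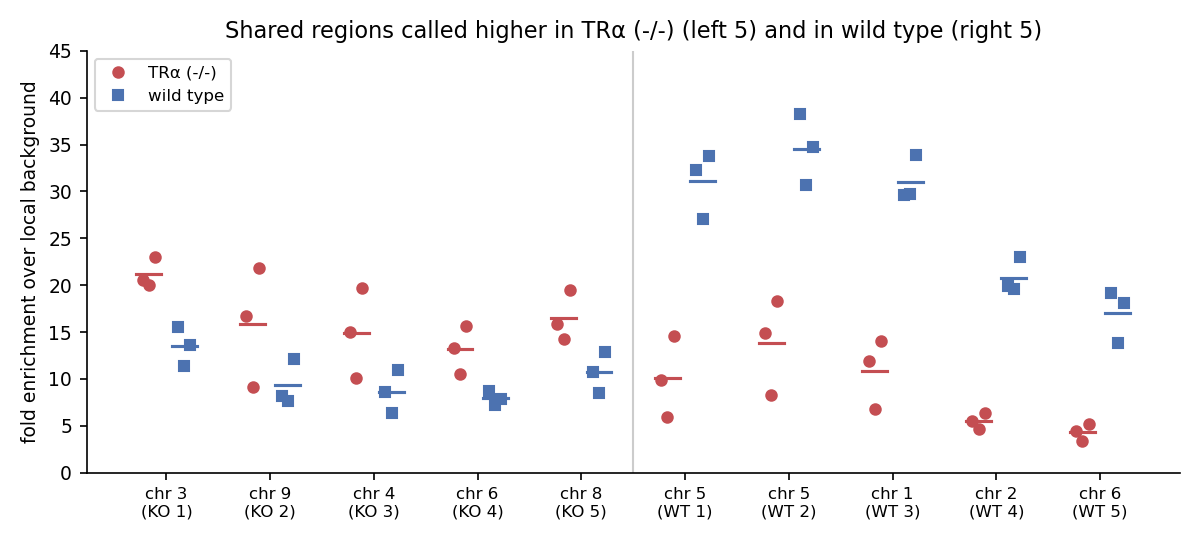
Fold enrichment over local background at the 5 named regions ranked higher in TRα (-/-) (left, KO 1 to 5 in order of p) and the 5 ranked higher in wild type (right, WT 1 to 5), labelled by chromosome. Points are single libraries, TRα (-/-) (circles) left of wild type (squares), and lines are means of 3; the wild-type points of the first right-hand region run from 27.1 to 33.8, above its TRα (-/-) points of 5.92 to 14.6.

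The strongest shared regions had similar fold enrichment in both genotypes, on lists of different depth. They were chosen for a high q value percentile in all 6 libraries, so this similarity follows in part from the choice. Peaks were called without a control, and whether these tall peaks are artifacts was not tested. At chr10:16969891-16970789 fold enrichment was 19.5, 22.0 and 20.5 in TRα (-/-), against 20.4, 19.3 and 20.7 in wild type, and the genotypes overlapped. Its pileups were 769, 483 and 1894 in TRα (-/-), against 1477, 2280 and 3498 in wild type. At chr8:97813504-97814069, on the chromosome of the wild type-only site chr8:97780567-97780793, fold enrichment was 27.0, 29.7 and 29.1 in TRα (-/-), against 28.2, 29.4 and 29.7 in wild type. At chr8:23529074-23530255 it was 31.9, 29.1 and 27.8 in TRα (-/-), against 37.8, 34.5 and 33.3 in wild type, where all wild-type values were higher. The regions chr5:35928540-35930451 (16.6, 14.1 and 14.9 in TRα (-/-), against 17.7, 15.5 and 15.9 in wild type) and chr4:52501688-52502272 (31.2, 28.7 and 29.2 in TRα (-/-), against 33.4, 32.5 and 31.0 in wild type) were the other members.

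The libraries from tadpoles given 10 nM T3 for 18 h were not used to define any class, so peaks in them are a separate measurement of the same sites. These lists held 38371, 28393 and 25461 peaks from 940383, 1832197 and 2851627 fragments in TRα (-/-), against 42421, 32984 and 40035 peaks from 1055706, 1825401 and 2307377 fragments in wild type, and the part of list size in the shares was not tested. In the 1538 strict wild-type regions, a peak was called in 35.4%, 47.9% and 53.5% of regions in TRα (-/-) replicates 1, 2 and 3 with T3, against 46.7%, 53.6% and 62.8% in wild type with T3. The groups overlapped (difference of means -8.78 percentage points, exact permutation p = 0.4). Bound in at least 2 of 3 libraries with T3 were 702 (45.6%) in TRα (-/-) and 867 (56.4%) in wild type, and 97 regions (6.31%) had no peak in any T3 library. With T3, 45 of the 1538 (2.93%) had a peak in 0 of 3 TRα (-/-) and 3 of 3 wild-type libraries. The share was 1.38% (129) of all 9356 wild type-only regions, 0.418% of shared regions and 0.964% of all 16797 kept regions. Of the 11 strict TRα (-/-) regions, 1 (9.09%) had this pattern too. The reverse was seen in 6 of the 1538 (0.390%), against 0.524% of wild type-only and 0.423% of all kept regions.

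Over all 9356 wild type-only regions the difference was smaller. A peak was called with T3 in 33.2%, 44.8% and 52.9% of them in TRα (-/-), against 39.2%, 48.0% and 56.9% in wild type (difference -4.39 points, exact permutation p = 0.6). With peaks of a summit pileup of at least 5 this difference was -0.25 points (exact permutation p = 1). TRα (-/-)-only regions had a peak with T3 in 24.3%, 31.8% and 41.3% in TRα (-/-), against 23.8%, 29.4% and 37.8% in wild type (difference 2.11 points, exact permutation p = 0.7). Shared regions had peaks in 71.5%, 83.6% and 89.8% in TRα (-/-), against 73.1%, 83.6% and 88.0% in wild type. In each class the genotypes overlapped, and both class differences had the sign of the class. Between same-numbered libraries, the differences ran from -5.97 to -3.25 points in wild type-only and from -11.3 to -5.72 in strict wild-type regions. They ran from 0.51 to 3.48 in TRα (-/-)-only and from -1.69 to 1.81 in shared regions. The paired sign-flip test, an alternative to the unpaired main test, gave an exact p = 0.25, the smallest 3 pairs allow, except in shared regions (p = 0.75).

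The ranked calls kept their direction with T3 more often than all regions did. Of the 65 regions higher in TRα (-/-) that had a peak in every T3 library, 48 (73.8%) had a higher mean score in TRα (-/-) with T3, against 48.9% of all 1661 such regions. Of the 83 higher in wild type, 62 (74.7%) had a higher mean score in wild type with T3, against 51.1% of all. The shifts were small, with a median of 5.90 percentile points for the first set and -3.26 for the second (TRα (-/-) minus wild type). The libraries lay apart in the called direction in 8 of 65 and 12 of 83 regions, against 5.66% and 5.90% of all. This check was added after seeing the data and was not tested. Among the named ranked sites, the genotypes were apart in fold enrichment with T3 only at chr5:2230440-2230968. It was 18.9, 17.7 and 22.4 in TRα (-/-) there, against 25.3, 28.7 and 24.3 in wild type. At chr6:129072880-129073610, pileups with T3 were 12, 14 and 28 in TRα (-/-), against 7, 12 and 26 in wild type.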

How the data were processed

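ChIP-seq libraries of stage 54 hind limb were grouped by the sample labels. Per the study's methods and file headers, the authors aligned reads to Xenbase v9.1 with Bowtie2 2.3.4.1, discarded redundant reads and ran MACS2 2.1.1.20160309 on each library without a control at a q value cutoff of 0.05. The deposited lists give each peak's length, summit pileup (a signal in fragments, not scaled between libraries), −log10 p-value and −log10 q-value, and fold enrichment, a ratio over local background. The authors' values were ranked within lists. A missing peak has no value, and depth is the fragments after filtering in the headers.

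Regions were merged with Python 3.11.15 (numpy 2.4.6, pandas 2.3.3, scipy 1.17.1). Means of library values were tested by exact two-sided permutation. Normal scores of fold enrichment ranks were tested by limma 3.58.1 in R 4.3.3 with Benjamini-Hochberg adjustment over 2194 regions. The 95% Wilson intervals of shares of regions or peaks describe counting error only and are not a test. Scripts were tested on simulated data. Named regions were the best 5 by lowest q value percentile in each strict corner and among shared regions, and the 5 of lowest p in each direction. The comparison, lists and rules were chosen with earlier results of these data known. Alternatives were stricter q values, a pileup minimum, equal list sizes, other merging and library rules, other ranked values, single libraries left out and a replicate block. Genes and sequences at the regions were not analysed here, since no genome or annotation of v9.1 was used.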

Additional observations from a re-analysis of the deposited data

How the results depend on the processing

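The ratio of bound regions, TRα (-/-) over wild type, ran from 0.158 to 0.684 with single libraries left out, was 0.776 with equal list sizes and 0.249 with all 3 libraries required. The share without binding in the other genotype ran from 3.32% to 25.4% for TRα (-/-) regions and from 48.9% to 84.7% for wild-type regions with single libraries left out. In the same order these shares were 11.8% and 60.8% at q below 0.01, 11.2% and 63.2% at q below 0.001, 9.26% and 66.1% at a pileup of at least 5, 25.8% and 42.4% with equal list sizes, 19.6% and 71.2% with 50% covered, 57.6% and 71.4% with 1 library sufficient, 7.31% and 76.9% with all 3 required, and 21.1% and 55.2% without replicate 2 of both genotypes.

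The strict corners held 75 regions for TRα (-/-) and 355 for wild type with equal list sizes, and 440 and 2835 without replicate 2 of both genotypes, where 2 libraries per genotype suffice. The TRα (-/-) corner held 6 at q below 0.01, 7 at q below 0.001 and 4 at a pileup of at least 5. The rank gap of wild type-only regions was -30.1 at q below 0.001, -28.5 at the pileup minimum, -28.9 with equal lists, -41.1 with 1 library sufficient, -18.8 with all 3 required, and -26.1 to -20.8 with single libraries left out. For the closest pair, the share of wild-type replicate 1 peaks met was 38.7% at q below 0.01, 45.5% at q below 0.001, 46.9% at the pileup minimum, 58.7% with equal lists, 34.4% with a merging gap of 500 bp and 26.7% with 50% covered, and the log2 pileup difference was 0.126, 0.126 and 0.022 under the first 3.

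The difference in median peak length reversed to 41.2 bp at the pileup minimum and ran from -52.8 to 17.7 bp with single libraries left out, reaching 11.5 bp without TRα (-/-) replicate 1 and 17.7 bp without wild-type replicate 3. Regions ranked higher in TRα (-/-) numbered 6 to 125, and in wild type 10 to 130, with single libraries left out, and ranks by q value gave 144 and 110 and by pileup 154 and 123 for TRα (-/-) and wild type. The cause of these changes was not tested beyond the construction of each alternative. The difference in peaks per library and the T3 difference kept their direction under the 11 and 15 alternatives tried, but the peak difference was -5787 without TRα (-/-) replicate 2, and the T3 difference was -1.87 points at q below 0.001, -0.25 at the pileup minimum and -1.49 with 1 library sufficient. Of 160 pairs of a named ranked region and an alternative, 152 kept the call, 1 lost it and in 7 the region no longer had a peak in all libraries (4 of these at chr6:129072880-129073610). The named ranked regions were chosen for low p in the same libraries, so this follows in part from the choice. Of all 173 calls, 16, 32 and 46 were still called without wild-type replicates 1, 2 and 3. Without TRα (-/-) replicates 1, 2 and 3, 110, 164 and 118 were still called. The number of libraries was kept in 24 of 35 alternatives for the named TRα (-/-)-only sites and in 35 of 35 for the wild type-only sites. All of these alternatives except the 500 bp merge only remove peaks or libraries. Under those the other genotype could not gain a peak, so they show only whether the site's own peaks were kept.

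Same-numbered libraries of the genotypes without T3 had correlations of their deviations of 0.158, 0.0216 and 0.184. The main tests did not take the numbers as pairs, although all 6 libraries correlated best with their own number. With a replicate block, limma called 101 regions higher in TRα (-/-) and 112 higher in wild type, and the paired sign-flip test of peaks per library gave an exact p = 0.25, the smallest 3 pairs allow. The lowest summit pileup in a list was 3, 3 and 4 fragments in TRα (-/-), against 3, 4 and 5 in wild type.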
